A study of Mus musculus with 8 samples.

Results

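Cyclic AMP and cyclic GMP signalling was examined in the upper neocortical layers of newborn mice that lacked Bcl11a, a zinc finger transcription factor, in the Emx1 lineage. The genes were those of the adenylyl cyclases, the cyclic nucleotide phosphodiesterases, the subunits of the cAMP-dependent protein kinase (PKA) and the A-kinase anchoring proteins (AKAPs). They were taken by symbol: Pde, Adcy or Akap followed by a digit, or any symbol that starts with Prkar or Prkac. This gave 56 of the 19938 genes that the array measured with a probe set of their own. By family number, 8 were dual-specificity, 8 cAMP-selective and 8 cGMP-selective phosphodiesterase genes. There were also 10 cyclases, 2 genes that share only the phosphodiesterase name, 4 regulatory and 1 catalytic PKA subunit, and 15 AKAPs. No filter on dim genes was used, so all 56 were tested. Prkaca and Akap2, whose probe sets are shared with another gene, were not analysed here.

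Tissue came from pups at postnatal day 2, cut by laser from layers II to IV of fresh frozen neocortex, with 1 array per pup. The 4 control pups were Bcl11a flox/+;Emx1 IRESCre/+ and the 4 mutant pups Bcl11a flox/flox;Emx1 IRESCre/+. Both groups therefore carried the same Cre, which acts in the progenitors of cortical excitatory neurons and much of the glia, and the controls had lost 1 allele in those cells. Interneurons, vessels and microglia arise outside that lineage and keep the gene in both groups. Bcl11a itself read 10.59, 10.52, 10.34 and 10.34 in the controls and 8.56, 8.85, 8.37 and 8.75 in the mutants, on a log2 scale. It fell by 1.82 (SE 0.10, adjusted p = 4.9e-07). The position of its probe set relative to the floxed exon was not analysed here.

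Adenylyl cyclases make cAMP from ATP, and phosphodiesterases break down cAMP, cGMP or both, so both enzyme groups set the level of the messenger between them. In the absence of cAMP, 2 regulatory subunits hold 2 catalytic subunits of PKA inactive, and cAMP releases them. AKAPs tie the kinase, mostly through its type II regulatory subunits, to membranes, the centrosome or receptors, often beside a phosphodiesterase. In developing cortex this signalling takes part in neuronal migration, axon growth and guidance, and the plasticity of synapses.

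Of the 56 genes, 5 rose and 7 fell in the mutant layers, and 44 did not pass. A gene is said to have risen, fallen or changed where its adjusted p in limma, a linear model with moderated variances, was under 0.05 over all 19938 genes. The largest fall was that of the cyclase gene Adcy8 (2.05-fold) and the largest rise that of another cyclase gene, Adcy2 (1.81-fold). The phosphodiesterase genes Pde4d, Pde5a and Pde4b and the anchoring protein gene Akap13 also rose. Pde8b and Pde2a, both type II regulatory subunits of PKA (Prkar2a and Prkar2b), and the anchoring protein genes Akap7 and Akap9 fell. Bulk tissue was measured, so for each gene fewer cells of a type and less RNA per cell cannot be told apart. The share that changed was 21.4%, beside 4.15% of all genes on the array, with 2.36% of all genes higher and 1.79% lower.

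**Figure D1:**
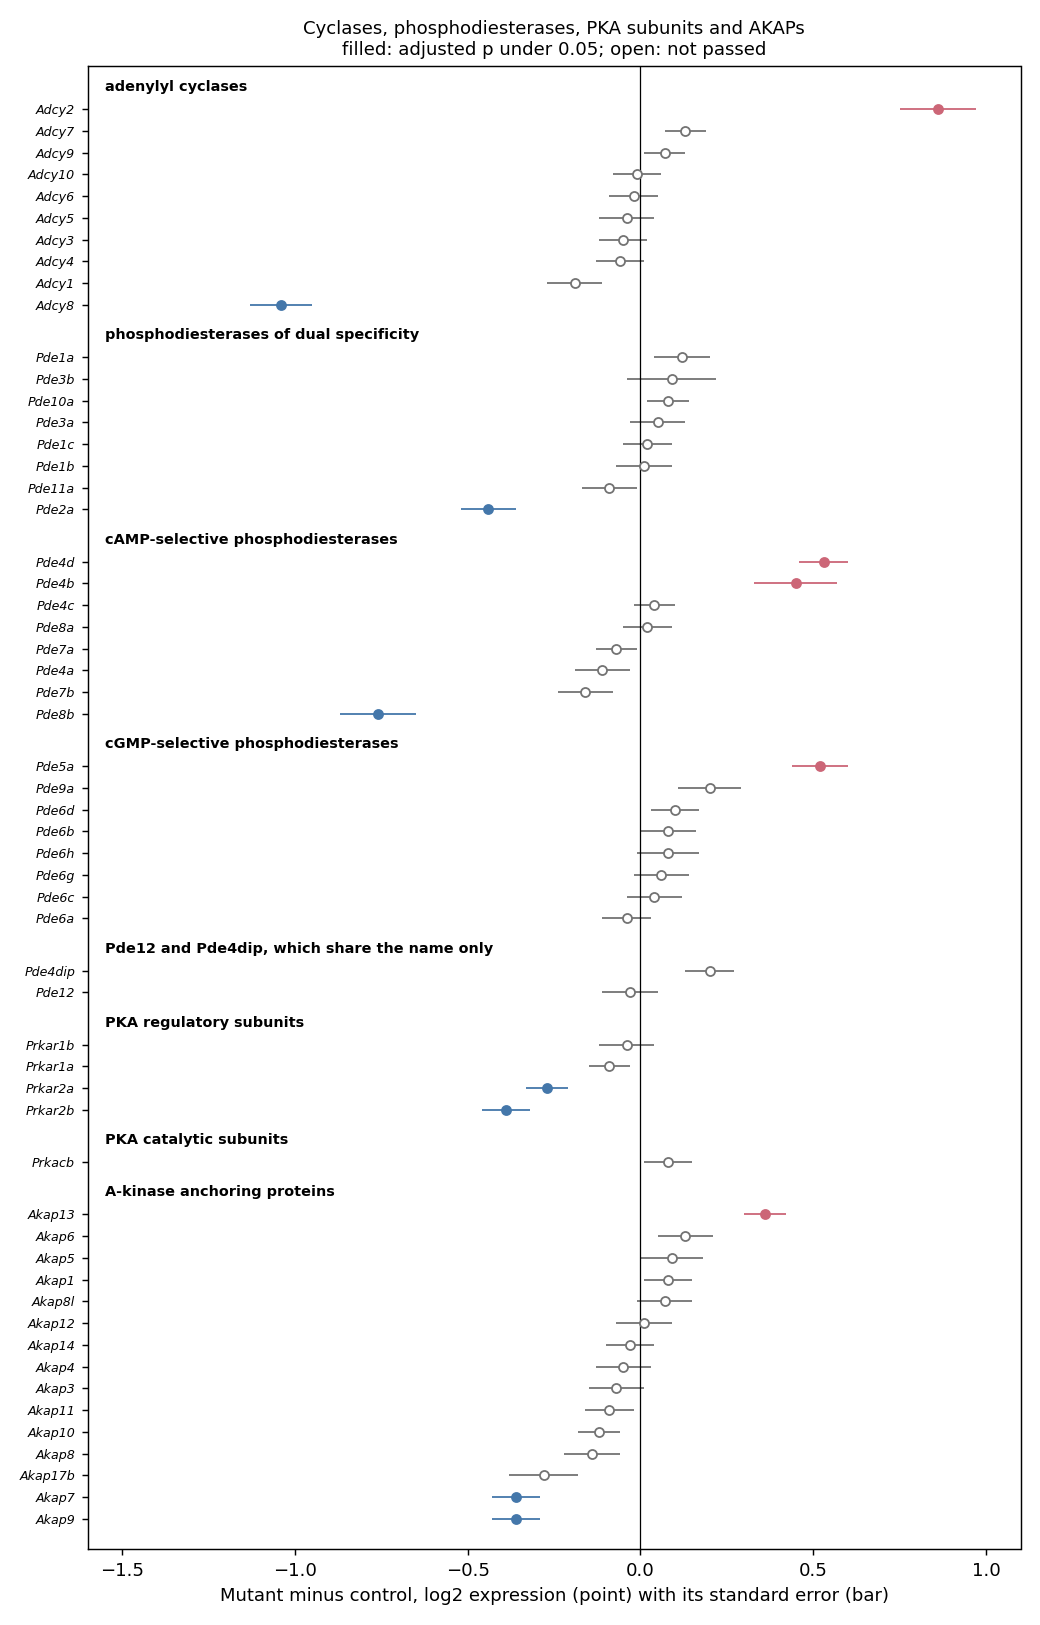
Difference between mutant and control on the log2 scale for all 56 genes, by family, with the standard error of the fit as a bar. Filled points are the 12 genes past the threshold, 5 to the right of 0 and 7 to the left; open points are the 44 others, which lie between -0.28 and 0.20.

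The differences of the 12 changed genes had a median size of 0.44 on the log2 scale, beside 0.47 for all changed genes of the array. Over the 56 genes the median difference was -0.0011, beside 0.02 over all genes, with 28 genes above 0 and 28 below. Control and mutant values did not overlap for 14 of the 56 genes (25.0%), beside 9.25% of all genes. For each of these 14 the exact two-sided permutation p was 0.0286, the smallest that the 70 ways to choose 4 of 8 arrays can give. Groups of 4 that do not overlap always give this value, so it adds no support.

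Readings of dim probe sets may be background. Y-linked genes on the 3 arrays with high Xist read from 3.33 to 4.04, and the upper value was taken as a floor. By this measure 50 of the 56 genes had a mean above the floor, and 24.0% of these changed, beside 5.55% of all genes above it. Those at or below it were Adcy10, Pde6a, Pde6b, Pde6c, Akap3 and Akap4, genes known from sperm or photoreceptors, and their values give no level. A reading belongs to its own probe set, so the readings of different genes are not ranked here as amounts of RNA.

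**Figure D2:**
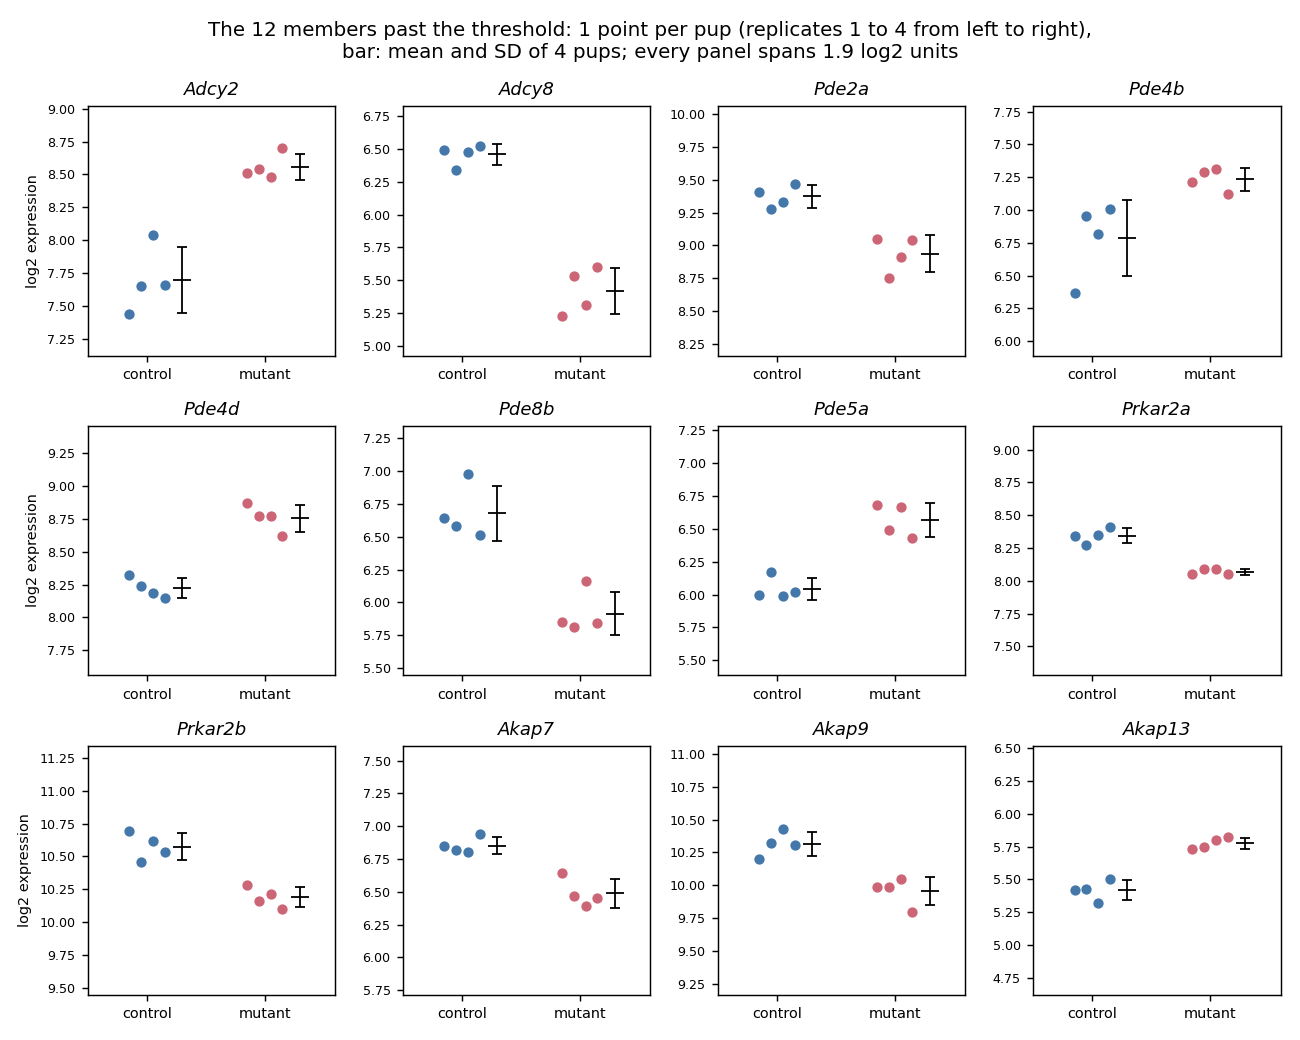
Log2 expression of the 12 changed genes in each pup (points, 4 control and 4 mutant), with the mean and SD of each group as a bar. The groups do not overlap in any panel, and the narrowest space between them, 0.12, is that of Pde4b.

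Among the adenylyl cyclases 1 gene rose, 1 fell and 8 did not pass. Adcy8 encodes a cyclase that calcium and calmodulin stimulate, and it links calcium entry at synapses to cAMP. Adcy8 read 6.49, 6.34, 6.48 and 6.52 in the controls and 5.23, 5.53, 5.31 and 5.60 in the mutants. Every mutant lay at least 0.74 below every control, the widest space between the groups among the 56 genes. The mean went from 6.46 ± 0.08 to 5.42 ± 0.18 (SD, n = 4), a difference of -1.04 (SE 0.09, adjusted p = 1.45e-05). The 95% interval of the fall was 1.80-fold to 2.34-fold.

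Adcy2 encodes a cyclase that G protein beta-gamma subunits stimulate together with the stimulatory alpha subunit. Adcy2 read 7.44, 7.65, 8.04 and 7.66 in the controls and 8.51, 8.54, 8.48 and 8.70 in the mutants. Control 3 was the highest of its group and still lay 0.44 below the lowest mutant. Means were 7.70 ± 0.25 and 8.56 ± 0.10 (SD, n = 4), a difference of 0.86 (SE 0.11, adjusted p = 3.25e-04) with an interval of 1.55-fold to 2.13-fold.

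Adcy1, the other calmodulin-stimulated cyclase common in cortex and a gene needed for the whisker map, read 9.53, 9.47, 9.61 and 9.48 in the controls and 9.49, 9.14, 9.26 and 9.46 in the mutants. The groups overlapped, and its difference of -0.19 did not pass (adjusted p = 0.332, 95% interval from -0.37 to -0.01). Its interval does not reach that of Adcy8, from -1.22 to -0.85, and the difference between the 2 genes was not tested. Adcy4 and Adcy7, which beta-gamma subunits also stimulate, had differences of -0.06 and 0.13 (adjusted p = 0.835 and 0.388). Adcy5 and Adcy6, which calcium inhibits, had differences of -0.04 and -0.02, Adcy3 of -0.05 and Adcy9 of 0.07 (adjusted p from 0.703 to 0.96).

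Pde2a was the only 1 of 8 dual-specificity phosphodiesterase genes to pass. Its enzyme hydrolyses both nucleotides, and binding of cGMP speeds its breakdown of cAMP. Pde2a read 9.41, 9.28, 9.33 and 9.47 in the controls and 9.05, 8.75, 8.91 and 9.04 in the mutants, with no overlap. It fell from 9.37 ± 0.08 to 8.94 ± 0.14 (SD, n = 4), a difference of -0.44 (SE 0.08, adjusted p = 0.00533), or 1.36-fold.

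The 3 calmodulin-activated genes Pde1a, Pde1b and Pde1c had differences of 0.12, 0.01 and 0.02. Pde3a and Pde3b, whose enzymes cGMP inhibits, had 0.05 and 0.09, and Pde3b was among the more variable members, with an SD of 0.23 in each group. Pde10a, the phosphodiesterase of striatal neurons, had a difference of 0.08 (adjusted p = 0.644) and Pde11a one of -0.09. The 12 measured striatal markers, 1 of which (Rarb) passed, summed on the linear scale to 416 to 455 in the controls and 434 to 458 in the mutants, and Tac1 was at or below the floor. Adcy5 and Pde10a, both abundant in striatum, overlapped between the groups, as did the summed markers. The part of striatal tissue in these values was not tested.

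Of the 8 cAMP-selective phosphodiesterase genes, 2 rose, 1 fell and 5 did not pass. The enzymes of family 4 are the targets of rolipram and bind many AKAPs and arrestins. Pde4d read 8.32, 8.24, 8.19 and 8.15 in the controls and 8.87, 8.77, 8.77 and 8.62 in the mutants. Every mutant lay at least 0.31 above every control, and the means were 8.23 ± 0.07 and 8.76 ± 0.10 (SD, n = 4). The rise was 1.45-fold (log2 difference 0.53, SE 0.07, adjusted p = 5.02e-04).

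Pde4d has 3 probe sets, of which the brightest gave these values. The second, with a mean of 6.22 in controls and 6.61 in mutants, had a difference of 0.38 that did not pass over all probe sets (adjusted p = 0.0537). The third, below the floor at 3.21 and 3.37, had 0.16 (adjusted p = 0.454). All 3 differences had the same sign.

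Pde4b, whose enzyme is a rolipram target in neurons and immune cells, read 6.37, 6.95, 6.82 and 7.01 in the controls and 7.21, 7.29, 7.31 and 7.12 in the mutants. Control 1 lay well below the other controls, and the highest control lay 0.12 below the lowest mutant. The means were 6.79 ± 0.29 and 7.23 ± 0.09 (SD, n = 4), a rise of 1.36-fold (log2 difference 0.45, SE 0.12, adjusted p = 0.0487). This value stands just inside the threshold: without control 3 or any 1 mutant the adjusted p lay between 0.0769 and 0.143. After centring each array on its median it was 0.0916, and with inferred sex as a covariate 0.101. Pde4a had a difference of -0.11 and Pde4c of 0.04 (adjusted p = 0.625 and 0.881).

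Pde8b encodes a high-affinity cAMP phosphodiesterase that rolipram does not inhibit. Pde8b read 6.64, 6.58, 6.98 and 6.51 in the controls and 5.85, 5.81, 6.16 and 5.84 in the mutants. Replicate 3 was the highest pup in each group, and the lowest control lay 0.35 above the highest mutant. The fall, from 6.68 ± 0.21 to 5.92 ± 0.16 (SD, n = 4), was 1.70-fold with a 95% interval of 1.45-fold to 1.99-fold (log2 difference -0.76, SE 0.11, adjusted p = 7.8e-04). Its close relative Pde8a read near the floor, at 4.56 ± 0.13 and 4.58 ± 0.04 (SD, n = 4). Pde7a and Pde7b had differences of -0.07 and -0.16 (adjusted p = 0.734 and 0.453).

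Bcl6, a transcriptional repressor, also fell in these mutants (log2 difference -1.82, adjusted p = 1.65e-06). The promoters of the 56 genes were therefore searched for short elements tied to the factors at hand. RefSeq promoters of build GRCm38.p6 covered 46 of the 56 genes with 88 start sites, 11 of the 12 changed genes among them. The 250 bases upstream of each start were read on both strands. The search covered the BCL6-type element TTCCTAGAA and its relaxed form TTCNNNGAA, which contains the former, the BCL11A-type element TGACCA, and the cAMP response element TGACGTCA with its core TGACG, which the full element contains. Adcy8 was not among the genes with a promoter.

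The element TTCCTAGAA was found upstream of 1 of the 46 genes, Pde8b, at 3 of its starts that lie close together and share the same match. These are 3 of the 88 member promoters (3.41%), beside 0.347% of all 32851 promoters of this length. The window upstream of the outermost of these starts (chr13:95250337-95250586, minus strand, GRCm38.p6, RefSeq) is shown because it held the only such match, and the capitals mark it, in the reverse orientation, 125 bases before the start.
Pde8b: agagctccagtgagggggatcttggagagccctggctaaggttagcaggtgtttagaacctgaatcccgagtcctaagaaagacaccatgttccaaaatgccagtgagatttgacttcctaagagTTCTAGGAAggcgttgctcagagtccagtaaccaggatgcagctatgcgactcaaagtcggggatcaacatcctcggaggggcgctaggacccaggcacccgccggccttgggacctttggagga

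The relaxed form TTCNNNGAA was in 12 of the 88 member promoters (13.6%), beside 7.02% of all promoters, and 3 of the 12 share the single Pde8b match. Among the genes with it Pde8b and Pde4b changed, in opposite directions. In Pde4b it lay 150 bases before the start of 1 of several transcripts (chr4:102569810-102570059, plus strand, GRCm38.p6, RefSeq), in capitals here. Another Pde4b start (chr4:102421305-102421554, plus strand) had the core of the cAMP response element 34 bases upstream, on the reverse strand, and the letters CGTCA mark it. The inner window is shown for the relaxed form, and the outer window because Pde4b was the only changed gene with that core.
Pde4b, inner start: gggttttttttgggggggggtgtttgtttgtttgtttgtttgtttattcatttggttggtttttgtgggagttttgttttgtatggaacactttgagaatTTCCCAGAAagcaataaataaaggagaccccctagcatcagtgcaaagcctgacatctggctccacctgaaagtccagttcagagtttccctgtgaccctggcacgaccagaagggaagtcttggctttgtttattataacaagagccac
Pde4b, outer start: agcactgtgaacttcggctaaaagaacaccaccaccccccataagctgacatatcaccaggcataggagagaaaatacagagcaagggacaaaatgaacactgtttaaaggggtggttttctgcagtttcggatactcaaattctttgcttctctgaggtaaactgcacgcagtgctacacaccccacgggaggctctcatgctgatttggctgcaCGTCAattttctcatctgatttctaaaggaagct

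The core TGACG was in 13 of the 88 member promoters (14.8%), beside 17.8% of all promoters. The full element TGACGTCA was in 1 of the 88 (1.14%), that of Prkar1a, beside 1.55%. These matches are letters in a window and were not tested as binding sites. A gene without a match may hold the element elsewhere.

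Of the 8 genes of the cGMP-selective phosphodiesterase families 1 rose and 7 did not pass. They were placed by family number, so the chaperone gene Pde6d is counted among them. Pde5a encodes the target of sildenafil, an enzyme of smooth muscle and of some neurons. Pde5a read 6.0, 6.17, 5.99 and 6.02 in the controls and 6.68, 6.49, 6.67 and 6.43 in the mutants. Every mutant lay at least 0.26 above every control. It rose from 6.04 ± 0.08 to 6.57 ± 0.13 (SD, n = 4), by 1.44-fold (log2 difference 0.52, SE 0.08, adjusted p = 0.00115). Markers of smooth muscle and meningeal fibroblasts, none of 10 past the threshold by limma and 1, Col1a2, at an unadjusted p under 0.05, summed to 406 to 473 in the controls and 397 to 440 in the mutants, with Lum at or below the floor. Their part in the rise of Pde5a was not tested.

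Pde9a, a high-affinity cGMP phosphodiesterase of neurons, read 7.31, 7.29, 7.33 and 7.28 in the controls and 7.72, 7.63, 7.29 and 7.39 in the mutants. Mutants 1, 2 and 4 lay above all controls and mutant 3 within their range, and the difference of 0.20 did not pass (adjusted p = 0.31). Of the photoreceptor family, Pde6d, which encodes a chaperone of prenylated proteins found in many tissues, read 8.54 ± 0.08 and 8.64 ± 0.10 (SD, n = 4, adjusted p = 0.629). Pde6g and Pde6h read at most 4.63 and 4.73 on any array, and Pde6a, Pde6b and Pde6c are those at or below the floor.

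The symbol also took in 2 genes outside the cyclic nucleotide phosphodiesterase families. Pde4dip encodes myomegalin, a protein of the Golgi and centrosome named for binding such an enzyme. Pde4dip read 8.26, 8.29, 8.41 and 8.42 in the controls and 8.48, 8.59, 8.59 and 8.54 in the mutants. The groups lay 0.05 apart without overlap, but the difference of 0.20 did not pass (adjusted p = 0.127). Pde12, an RNA-degrading enzyme of mitochondria, had a difference of -0.03 (adjusted p = 0.924).

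**Figure D3:**
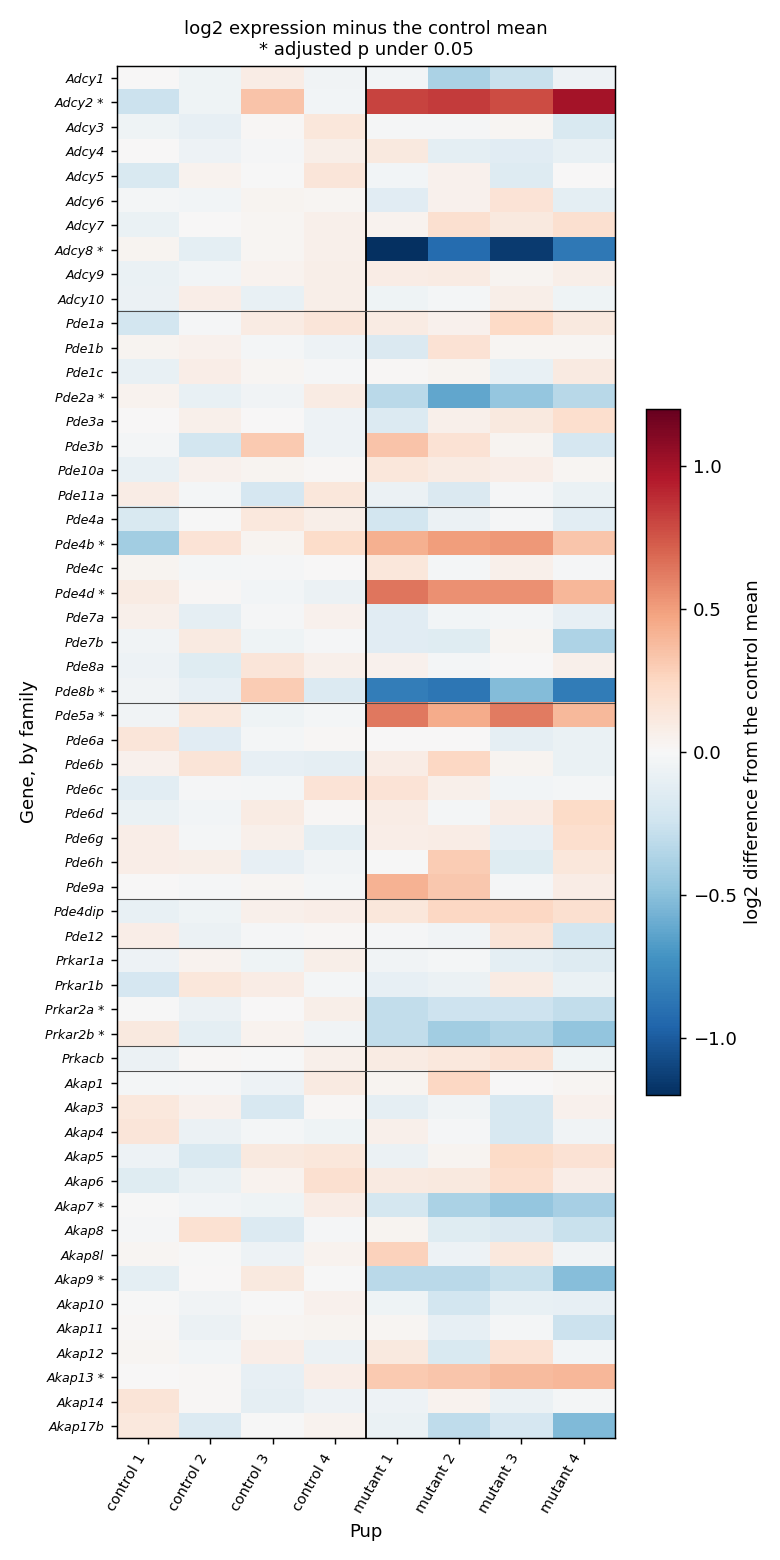
Log2 expression of each of the 56 genes in each pup minus the mean of the 4 controls, as colour (red higher, blue lower), with families separated by lines and changed genes starred. The 12 starred genes take the same colour in all 4 mutants; control 1 and control 3 differ from the other controls for Adcy2, and control 1 for Pde4b.

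The 2 type II regulatory subunits of PKA fell, and the 2 type I subunits did not pass. Type II subunits are the ones that most AKAPs hold in place, and Prkar2b is the form known to predominate in forebrain neurons. Prkar2b read 10.69, 10.46, 10.62 and 10.53 in the controls and 10.28, 10.16, 10.21 and 10.10 in the mutants. Its lowest control lay 0.18 above its highest mutant. It fell from 10.57 ± 0.10 to 10.18 ± 0.07 (SD, n = 4), by 1.31-fold (log2 difference -0.39, SE 0.07, adjusted p = 0.00552).

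Prkar2a, the type II form found in most tissues, read 8.34, 8.27, 8.35 and 8.41 in the controls and 8.05, 8.09, 8.09 and 8.05 in the mutants. The mutants lay close together, between 8.05 and 8.09, and at least 0.18 below every control. The fall from 8.34 ± 0.06 to 8.07 ± 0.02 (SD, n = 4) was 1.21-fold (log2 difference -0.27, SE 0.06, adjusted p = 0.0193). Its call was lost without control 3, control 4, mutant 2 or mutant 4 (adjusted p from 0.0501 to 0.0651), with the difference between -0.28 and -0.25.

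Prkar2a was the only changed gene with the element TGACCA upstream. It was in 5 of the 88 member promoters (5.68%), beside 11.4% of all promoters. It stood 175 and 98 bases before the Prkar2a start (chr9:108691893-108692142, plus strand, GRCm38.p6, RefSeq), and the capitals mark both copies.
Prkar2a: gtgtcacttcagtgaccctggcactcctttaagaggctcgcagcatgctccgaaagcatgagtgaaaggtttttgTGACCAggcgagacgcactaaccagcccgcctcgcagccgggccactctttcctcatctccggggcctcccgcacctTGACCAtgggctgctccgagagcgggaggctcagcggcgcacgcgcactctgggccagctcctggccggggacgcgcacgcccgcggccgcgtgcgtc

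Prkar1a, the type I subunit that all cells use, read 9.81, 9.92, 9.82 and 9.95 in the controls and 9.83, 9.85, 9.76 and 9.72 in the mutants, with a difference of -0.09 (adjusted p = 0.631). Prkar1b, the neuronal type I subunit, read 11.28, 11.62, 11.57 and 11.46 in the controls and 11.38, 11.41, 11.58 and 11.40 in the mutants, with a difference of -0.04 (adjusted p = 0.896). Both type I genes overlapped between the groups. Their 95% intervals ran from -0.23 to 0.05 and from -0.22 to 0.13, and those of Prkar2b and Prkar2a from -0.54 to -0.24 and from -0.40 to -0.14. The intervals of Prkar2a and of the type I genes overlap, and the difference between the types was not tested. Prkacb, the catalytic subunit, read 10.66, 10.74, 10.72 and 10.79 in the controls and 10.83, 10.85, 10.90 and 10.68 in the mutants. Its difference of 0.08 did not pass (adjusted p = 0.674, 95% interval from -0.06 to 0.23).

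Of the 15 AKAP genes 1 rose, 2 fell and 12 did not pass. Akap9 encodes a large scaffold of the centrosome and Golgi that also binds NMDA receptors. Akap9 read 10.20, 10.32, 10.43 and 10.31 in the controls and 9.99, 9.99, 10.05 and 9.80 in the mutants. It fell from 10.31 ± 0.09 to 9.96 ± 0.11 (SD, n = 4), by 1.28-fold (log2 difference -0.36, SE 0.07, adjusted p = 0.0147), and without control 3 the adjusted p was 0.0513.

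Akap7 encodes a small membrane-bound anchor that places PKA at ion channels. Akap7 read 6.85, 6.82, 6.80 and 6.94 in the controls and 6.64, 6.47, 6.39 and 6.45 in the mutants, with no overlap. The fall from 6.85 ± 0.06 to 6.49 ± 0.11 (SD, n = 4) was 1.29-fold (log2 difference -0.36, SE 0.07, adjusted p = 0.00806). Akap13, which joins PKA anchoring to a RhoA exchange factor, went the other way. Akap13 read 5.42, 5.43, 5.32 and 5.50 in the controls and 5.73, 5.75, 5.80 and 5.82 in the mutants. It rose from 5.42 ± 0.08 to 5.77 ± 0.04 (SD, n = 4), by 1.28-fold (log2 difference 0.36, SE 0.06, adjusted p = 0.00464).

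Other AKAPs of neurons did not pass. Akap5, which holds PKA and calcineurin at glutamate receptors, had a difference of 0.09 (adjusted p = 0.742), and Akap6, of the nuclear envelope, one of 0.13 (adjusted p = 0.536). Akap1 of mitochondria, Akap11 and the scaffold Akap12 had 0.08, -0.09 and 0.01 (adjusted p from 0.694 to 0.973). The 3 probe sets of Akap11 gave -0.09, -0.05 and -0.05. Akap10 read 7.20, 7.16, 7.20 and 7.25 in the controls and 7.15, 6.98, 7.11 and 7.10 in the mutants, 0.02 apart without overlap, with a difference of -0.12 (adjusted p = 0.427). Akap17b had the largest difference of those that did not pass, -0.28 (adjusted p = 0.165), with overlapping groups.

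Other genes of cyclic nucleotide signalling were taken from a fixed list. Of 58 measured genes from a list of 63, 1 rose, 3 fell and 54 did not pass, which is 6.9% changed beside 4.15% of all genes. The median difference of the list was 0.02, as over all genes. Both subunits of the main soluble guanylyl cyclase, the receptor of nitric oxide, fell. Gucy1a1 read 9.92, 9.77, 9.38 and 9.41 in the controls and 8.60, 8.80, 8.57 and 8.61 in the mutants. This was a fall of 1.97-fold (log2 difference -0.98, SE 0.11, adjusted p = 1.92e-04).

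Gucy1b1, its partner subunit, read 9.08, 8.75, 8.76 and 8.64 in the controls and 8.35, 8.23, 8.23 and 8.19 in the mutants. It fell 1.47-fold (log2 difference -0.56, SE 0.09, adjusted p = 0.0021). The alternative alpha subunit Gucy1a2 had a difference of -0.16 (adjusted p = 0.5). Prkg1, 1 of the 2 measured genes of cGMP-dependent protein kinases, read 5.27, 6.01, 5.80 and 5.96 in the controls and 6.83, 6.68, 6.73 and 6.59 in the mutants. It rose 1.93-fold (log2 difference 0.95, SE 0.13, adjusted p = 8.08e-04). The other, Prkg2, read near the floor, with a mean of 4.20 in both groups (difference -0.0024, adjusted p = 0.994). Control 1 was the lowest pup for Prkg1 and the highest for both cyclase subunits, and all 3 calls held without it. When variances were not moderated across genes, Gucy1b1 and Prkg1 did not pass (adjusted p = 0.072 and 0.0788).

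**Figure D4:**
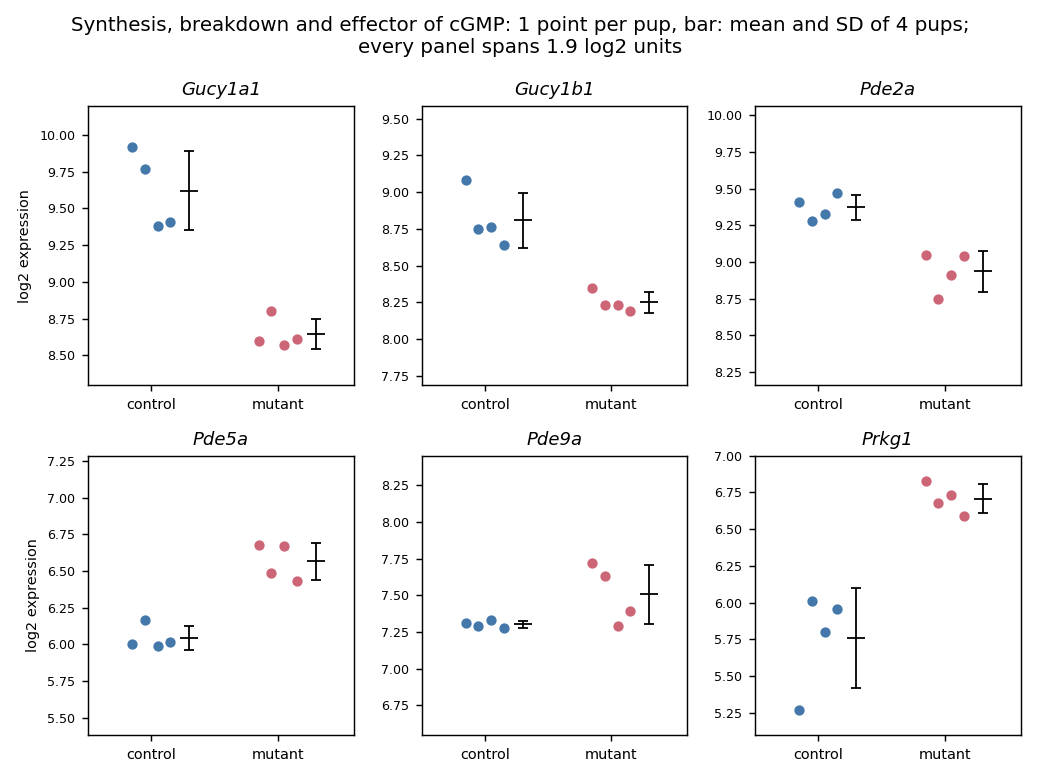
Log2 expression in each pup of 6 genes of cGMP synthesis (Gucy1a1, Gucy1b1), breakdown (Pde2a, Pde5a, Pde9a) and response (Prkg1), with the mean and SD of 4 pups as a bar. Mutants lie below all controls for the 3 genes Gucy1a1, Gucy1b1 and Pde2a and above them for Pde5a and Prkg1, while the groups overlap for Pde9a.

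Arpp21, a phosphoprotein regulated by cAMP in neurons, fell by 0.27 (SE 0.06, adjusted p = 0.0294), a call that was lost in 6 of the 8 fits with an array left out (adjusted p between 0.0554 and 0.103; it held without control 1 and mutant 3) and with inferred sex as a covariate (0.0631). None of the 6 G protein alpha subunits passed by limma, with 1 of them, Gnai1, at an unadjusted p under 0.05 (difference 0.19). Nor did any of the 3 PKA inhibitor peptides, of which 2 had an unadjusted p under 0.05: Pkia read 10.89 to 11.02 in controls and 11.09 to 11.22 in mutants (difference 0.17, adjusted p = 0.202), and Pkig had a difference of 0.20 (adjusted p = 0.28). Sphkap, a neuronal anchor of type I PKA, had 0.58 but varied widely (8.10 ± 0.44 and 8.69 ± 0.25, SD, n = 4, adjusted p = 0.113). Ezr, another anchor, had 0.30 without overlap (adjusted p = 0.112), and the cAMP-activated exchange factor Rapgef3 had 0.21 (adjusted p = 0.299). Over the list, 7 genes were higher and 3 lower at an unadjusted p under 0.05 by limma, those that passed included. The genes of this paragraph other than Arpp21 were named after their values had been seen.

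Markers of other cell types and of the layers themselves were summed on the linear scale. The 13 measured interneuron markers, of which Npy and Dlx1 fell, summed to 2094 to 2212 in the controls and 1600 to 1712 in the mutants, with none at the floor. Without Npy, which moved that sum most, the ranges were 1595 to 1795 and 1471 to 1556, which do not overlap. Gad1, Gad2, Slc32a1, Dlx5 and Lhx6 were lower and Calb2 higher at an unadjusted p under 0.05 by limma, without passing. The median log2 difference of the interneuron list was -0.19, beside 0.02 over all genes. The markers of deep-layer projection neurons, of which Ldb2 rose and Ntsr1 fell out of 10, summed to 1323 to 1893 and to 2438 to 2790, with Sulf1 at or below the floor. Ldb2 moved that sum most: without it the sums were 952 to 1050 and 835 to 1084, which overlap and still hold Ntsr1. The list's median log2 difference was 0.07. Fezf2 and Crym were higher at an unadjusted p under 0.05 by limma, without passing (log2 differences of 0.80 and 0.18, adjusted p = 0.105 and 0.334). The 10 markers of excitatory cortical neurons, of which 5 fell and 1 (Neurod6) rose, summed to 7852 to 8373 and to 7206 to 7852, but they include the deleted gene. Without Bcl11a the sums were 6555 to 6904 and 6777 to 7475, which overlap. Neurod6 moved the sum most. With Neurod6 left out and Bcl11a kept, the sums were 6271 to 6690 and 4752 to 5304, which do not overlap. That gap includes the fall of Bcl11a itself, and sums without both genes were not computed. The median log2 difference of the excitatory list was -0.20. The upper-layer markers Cux2 and Cux1 were among those that fell (log2 differences of -1.29 and -0.35, adjusted p = 1.01e-06 and 0.0106), as were Slc17a6 and Emx1. The part of these cell types in the changes of Adcy2, Adcy8, the phosphodiesterases, PKA and AKAPs was not tested.

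The layers' own markers were present, with every excitatory neuron marker above the floor. Of the 13 vascular markers 1 (Abcc9) fell. Kdr and Flt1, both without overlap, and Vtn were lower at an unadjusted p under 0.05 by limma, without passing. The median log2 difference of the vascular list was -0.11. Its sums, 1362 to 1467 in the controls and 1256 to 1396 in the mutants, overlapped. The same held for the markers of microglia (234 to 251 and 226 to 247, with P2ry12, Aif1 and Tyrobp at or below the floor), of the oligodendrocyte lineage (631 to 746 and 571 to 646) and of astrocytes and radial glia (6105 to 6666 and 5723 to 6547, with Vim lower). C1qa, Pdgfra, Cspg4 and Gfap of these lists were lower at an unadjusted p under 0.05 by limma, without passing. No gene of these lists was higher at that level. Array medians lay between 4.83 and 4.91, and correlations across genes were at least 0.991 between any 2 arrays. Control 1 had the lowest array weight, 0.556, and all 12 changed genes passed without it.

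**Figure D5:**
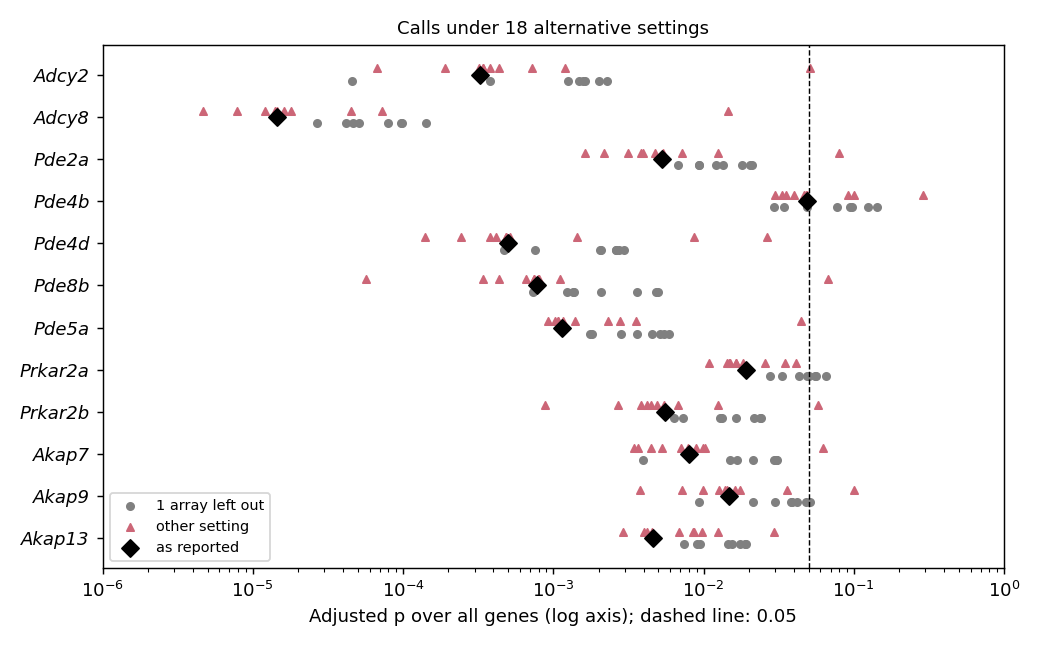
Adjusted p of the 12 changed genes as reported (diamonds), with each array left out in turn (grey points) and under the other settings (triangles), on a log axis with the threshold of 0.05 dashed. Adcy8, Pde4d, Pde5a and Akap13 stay left of the line throughout, and Pde4b has the most points to its right.

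Across the 18 alternative settings Adcy8, Pde4d, Pde5a and Akap13 passed each time. Adcy2, Pde2a, Pde8b, Prkar2b and Akap7 lost the call under 1 setting alone, when variances were not moderated across genes (adjusted p = 0.0515, 0.0793, 0.0673, 0.0575 and 0.0621). Pde4b and Akap9 lost theirs under it as well (adjusted p = 0.29 and 0.1), beside the losses given above. Under that setting 249 genes of the array passed, or 1.25%. No changed gene turned its direction under any of the 18.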

How the data were processed

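Total RNA from laser-cut neocortex was hybridised to Affymetrix Mouse Gene 1.0 ST arrays and analysed by the authors in BRB-ArrayTools, per the labels. The deposited values are on a log scale, run from 2.03 to 13.8, and were taken as log2 expression. Background correction, normalization, summarisation and log base were not given in the sources used here; another base would change the fold changes.

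Of 35556 probe sets, the platform annotation gave 21789 a single symbol. The brightest per gene by mean over 8 arrays was kept, which left 19938 genes. All 56 members matched the RefSeq table of GRCm38.p6 by Entrez identifier. Genotype was fitted with limma 3.58.1 in R 4.3.3 (6.91 prior degrees of freedom), and p-values were Benjamini-Hochberg adjusted over all genes. SE is the model's standard error, with a median of 0.0765 over the 56 genes, and the number of arrays limits the precision. The procedure was tested on simulated data with known log2 changes. It recovered 53 of 67 changes of 0.5, 67 of 67 of 1.0 and 66 of 66 of 2.0, with 11 false calls. Changes smaller than 0.5 were not simulated.

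Named genes were all those past the threshold, those whose groups did not overlap, all PKA subunits, and the brightest and most different gene of each family; from the wider list, those that passed. Other genes named were picked with their values in view. The members, gene lists and tests were chosen with earlier results of these data known. Alternatives covered normalization, dim-gene filters, probe set choice, array weights, variance estimates, inferred sex, the replicate number as a block and leaving out each array.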

Additional observations from a re-analysis of the deposited data

Results flagged for a closer look

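Among the named genes, 46 groups of 4 pups were examined for a pup whose distance from its nearest neighbour took up more of the group's range than Dixon's 95% critical value allows, and 4 had one. Chance gives about 1 in 20. Pde8b read 6.16 in mutant 3, where the next mutant read 5.85. Pde5a read 6.17 in control 2, where the next control read 6.02. Prkar1b read 11.58 in mutant 3, against 11.41 in the next mutant. Gucy1a1 read 8.80 in mutant 2, and the next mutant read 8.61. Each of the 3 changed genes among these kept its call without the array concerned.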

How the results depend on the processing

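Of 216 combinations of the 12 changed genes with the 18 alternatives, 197 kept the call, 19 lost it and 0 changed sign. With each gene's own variance, 3 members were called higher and 2 lower, in place of 5 and 7; by limma without moderation the pathway list then had 0 genes higher (5 at an unadjusted p under 0.05) and 1 lower, in place of 1 and 3. Leaving out 1 array at a time gave 1 to 2 pathway genes higher, the second being Sphkap without control 4, and took Prkar1b, which did not pass, from -0.11 to 0.00039, the latter without control 2. Deviations of same-numbered arrays from their group means had low positive correlations (0.109, 0.0558, 0.295 and 0.149). The mutant with the highest correlation was the same-numbered one for controls 1, 3 and 4, and mutant 1 for control 2. The labels state no pairing, so the main fit did not use the numbers. With the replicate block, 5 members rose and 7 fell as before, 2 pathway genes rose (Prkg1 and Sphkap), and 987 genes of the array were called in place of 827. Dim-gene filters left 49 and 38 members, and all 12 calls held. The smallest called difference among the members was 0.27 in size, while Akap17b at -0.28 did not pass. The marker sums without single genes were chosen after seeing the data.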
